A study of Rattus norvegicus with 14 samples.

Results

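Interferon response genes are genes whose transcription is driven by interferons, the cytokines that cells release on sensing viral or other foreign nucleic acid. The 8 genes described here are Ifit2 (Entrez gene 294091), Ifit3 (309526), Irf1 (24508), Irf7 (293624), Irf9 (305896), Stat2 (288774), Isg15 (298693) and Usp18 (312688). They were chosen from the group differences of these same libraries, by symbol, among the 22601 genes listed for each library. Their differences between groups are therefore given as descriptions without a test. All 8 had a level of at least 1 FPKM in at least 4 libraries, the filter that 12744 of the 22601 genes passed. FPKM is the number of sequenced fragments divided by transcript length and by the library's total, so levels of different genes can be set side by side.

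The samples were hippocampi of wild-type Wistar rats weighing 180 to 220 g, the hippocampus being the brain region that holds the dentate gyrus and the CA fields. Rats were allotted at random to a control group that received vehicle (n = 4), to a group that received pentylenetetrazole (PTZ) with vehicle (n = 5) and to a group that received PTZ with Q808 (PTZ+Q808, n = 5). PTZ is a convulsant that blocks GABA-A receptors, and Q808 is a code name whose chemistry is not described here. The sources used here do not give dose, sampling time, age or sex. Polyadenylated RNA of each sample was sequenced as 1 library.

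In the type I interferon pathway, a receptor made of Ifnar1 and Ifnar2 activates the kinases Jak1 and Tyk2, which phosphorylate Stat2. Stat2 joins Irf9 in the complex ISGF3, which binds a promoter element called the interferon-stimulated response element (ISRE) and switches on target genes. Ifit2, Ifit3, Isg15, Usp18 and Irf7 are such targets. Interferon gamma acts at another element, the gamma-activated site (GAS), and Irf1 is its classic early target. In brain, microglia, endothelium, meningeal cells and neurons can all run this programme. In the annotation column of the deposited tables, 6 of the 8 genes (Ifit2, Ifit3, Irf1, Irf7, Stat2 and Isg15) carried the term "defense response to virus", against 145 of all 22601 genes (0.642%).

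The promoters show which of these elements lie next to the genes. RefSeq promoters on the build GRCr8 were found by Entrez gene number for 5 of the 8 genes, and the 250 bases before each transcript start were searched on both strands. The ISRE core was written as GAAANNGAAA and GAS as TTCNNNGAA. An ISRE core lay in the windows of Ifit3 and Irf7, and a GAS in those of Irf1 and Irf9. The window of Stat2 held neither. The 4 windows that held a match are printed to show where it lies, with the matched bases in capitals. Ifit3 is at chr1:241527076-241527325 (plus strand, match beginning 44 bases before the start), Irf7 at chr1:205800024-205800273 (minus strand, 69 bases), Irf1 at chr10:38417685-38417934 (plus strand, 142 bases) and Irf9 at chr15:33065586-33065835 (plus strand, 99 bases).
Ifit3 promoter: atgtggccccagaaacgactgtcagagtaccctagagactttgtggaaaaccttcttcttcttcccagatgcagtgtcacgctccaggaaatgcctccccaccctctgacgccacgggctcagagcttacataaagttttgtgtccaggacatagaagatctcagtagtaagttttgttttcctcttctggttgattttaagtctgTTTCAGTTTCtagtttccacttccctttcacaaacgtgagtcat
Irf7 promoter: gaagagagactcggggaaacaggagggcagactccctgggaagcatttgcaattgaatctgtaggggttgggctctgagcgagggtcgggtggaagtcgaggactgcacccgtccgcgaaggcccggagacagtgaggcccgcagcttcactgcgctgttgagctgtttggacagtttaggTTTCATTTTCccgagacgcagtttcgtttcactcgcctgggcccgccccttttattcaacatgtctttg
Irf1 promoter: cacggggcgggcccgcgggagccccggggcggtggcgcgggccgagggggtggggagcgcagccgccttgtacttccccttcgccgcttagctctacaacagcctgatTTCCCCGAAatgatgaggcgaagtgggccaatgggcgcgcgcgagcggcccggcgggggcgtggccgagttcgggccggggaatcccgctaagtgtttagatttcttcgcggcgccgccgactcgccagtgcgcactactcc
Irf9 promoter: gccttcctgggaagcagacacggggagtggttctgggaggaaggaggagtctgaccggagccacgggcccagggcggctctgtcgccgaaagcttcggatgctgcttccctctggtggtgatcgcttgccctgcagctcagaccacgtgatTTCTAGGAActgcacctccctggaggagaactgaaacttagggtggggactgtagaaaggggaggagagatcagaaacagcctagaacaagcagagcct
Over all 33469 rat promoters in that table, 1140 (3.41%) held an ISRE core and 2566 (7.67%) a GAS. Of 54 other antiviral effector genes listed for this pathway, 45 had a promoter in the table, and 23 of these held an ISRE core. A match is a stretch of letters and does not show that a factor was bound.

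The summed FPKM of a library ran from 383126 to 419358. FPKM values fell on whole multiples of 1 fragment (2000 of 2000 low genes checked, within 0.05 of a step), and relative depth across the libraries ran from 0.858 to 1.04. Hippocampal markers summed to 222 to 326 FPKM, with 6 to 7 of 8 at 1 FPKM or more. In control replicate 2 the sum of striatal markers was 376 FPKM against 36.8 to 52.2 in the other libraries, and the sum of pituitary markers was 685 FPKM in replicate 3 of PTZ+Q808 and 1.72 to 11.5 elsewhere. Choroid plexus markers differed widely within every group. They summed to 58.7 to 7334 FPKM in control, 120 to 5502 in PTZ and 341 to 7026 in PTZ+Q808. Erythrocyte markers summed to 704 to 4458 FPKM over the libraries. Replicates 1 and 2 had the highest sums of each group, at 3650 and 2656 FPKM in control, 3206 and 2359 in PTZ, and 3436 and 4458 in PTZ+Q808. All 10 microglial markers were at 1 FPKM or more in all 14 libraries, with sums of 206 to 257 FPKM in control, 202 to 236 in PTZ and 200 to 262 in PTZ+Q808. Of 14 blood leukocyte markers, 3 to 5 reached 1 FPKM in a library. In bulk tissue, fewer cells of a type and less RNA per cell cannot be told apart. Nothing beyond the random allotment says which animal each replicate came from, so the spread between replicates may be partly technical.

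Of the 8 genes, Ifit3 and Ifit2 separated the PTZ libraries from the control libraries. Ifit3 was 4.32 times as high in PTZ as in control by mean FPKM, and Ifit2 1.53 times as high. Both stayed high in PTZ+Q808, at 3.53 and 1.54 times the control mean. The transcription factor gene Irf1 was lower than control in both exposed groups, at 0.770 and 0.736 times the control mean. Irf7, Irf9, Stat2, Isg15 and Usp18 had overlapping ranges in PTZ and control. At a Benjamini-Hochberg adjusted p under 0.05 in limma, 0 of the 8 genes were called in PTZ against control, where 4 of 12744 genes (0.0314%) were called. The groups did not overlap for 2 of the 8 genes, against 386 of all 12744 genes (3.03%). These shares are printed as background, since the genes were picked on this contrast.

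**Figure D1:**
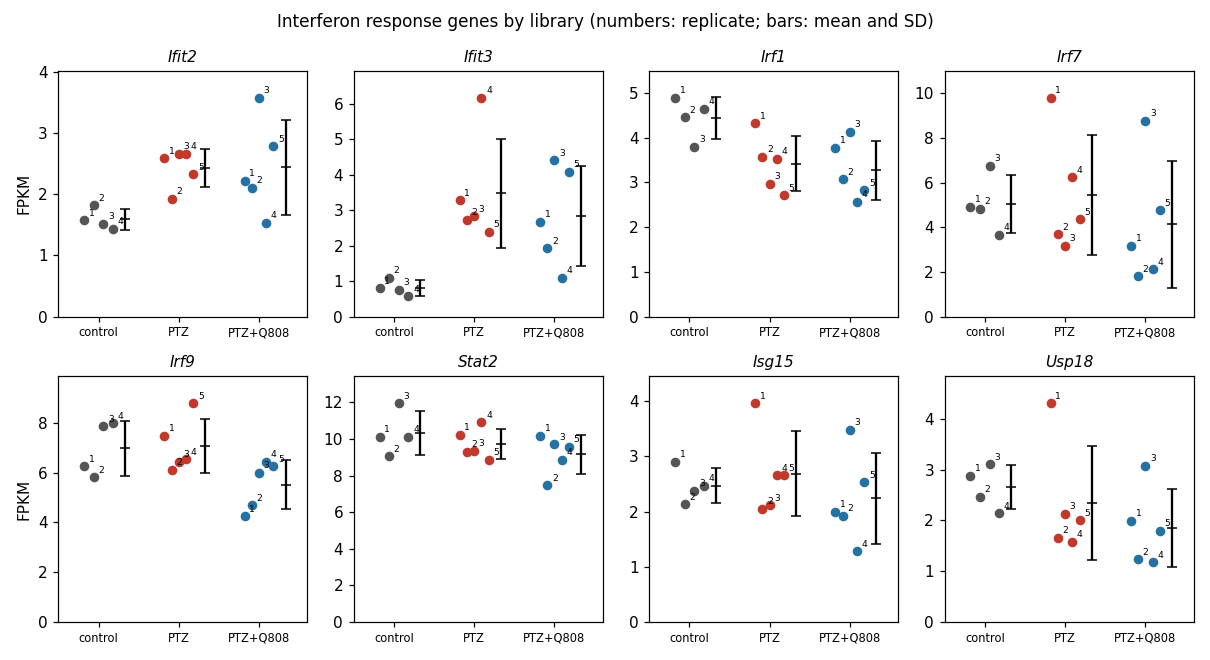
FPKM of the 8 genes in each of the 14 libraries (vertical axes, linear from 0), by group on the horizontal axis; points are libraries with their replicate number, and the black bars are the group mean and SD. The 5 PTZ libraries of Ifit2 and Ifit3 lie above all 4 control libraries, and Irf7, Isg15 and Usp18 are highest in PTZ replicate 1.

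Ifit3 and Ifit2 encode proteins built of tetratricopeptide repeats that bind foreign RNA or partner proteins and restrain viral translation. Ifit3 stood at 0.795, 1.09, 0.752 and 0.574 FPKM in control replicates 1 to 4. In PTZ replicates 1 to 5 it stood at 3.28, 2.72, 2.82, 6.16 and 2.39 FPKM. The lowest PTZ library was thus above the highest control library, and PTZ replicate 4 stood apart from the other 4. In PTZ+Q808 replicates 1 to 5 Ifit3 stood at 2.67, 1.92, 4.40, 1.08 and 4.08 FPKM. Of these, replicates 1, 2, 3 and 5 were above all control libraries, while replicate 4 lay within the control range. Group means were 0.803 ± 0.215 FPKM (SD, n = 4), 3.47 ± 1.53 (n = 5) and 2.83 ± 1.41 (n = 5). On the log2(FPKM + 1) scale, PTZ was above control by 1.26 ± 0.265 (SE), with a 95% interval of 0.70 to 1.83. The added 1 shrinks this value for a gene at so low a level. Ifit3 rested on 21 to 38 fragments in a control library, 81 to 220 in a PTZ library and 39 to 160 in a PTZ+Q808 library.

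Ifit2 was also lowest in control, over a narrower range. It stood at 1.57, 1.82, 1.52 and 1.44 FPKM in control, and at 2.59, 1.93, 2.66, 2.66 and 2.33 FPKM in PTZ. No PTZ library reached down to the control range, with PTZ replicate 2 the closest to it. In PTZ+Q808 the values were 2.22, 2.10, 3.57, 1.53 and 2.79 FPKM, and replicate 4 again lay within the control range. Means were 1.59 ± 0.165 FPKM (SD, n = 4), 2.43 ± 0.313 (n = 5) and 2.44 ± 0.774 (n = 5). The log2 difference between PTZ and control was 0.40 ± 0.139 (SE, 95% interval 0.11 to 0.70). Ifit genes are a family of related copies, and how reads shared between copies were counted is not given in the sources used here.

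The difference of Ifit3 was larger in 1 class of animals than in the other. Libraries with Y-linked transcripts numbered 2 of 4 for control, and 3 of 5 for each exposed group. Among libraries with Y-linked transcripts, Ifit3 was at 2.39 to 3.28 FPKM in PTZ and at 0.795 to 1.09 in control, a log2 difference of 0.96. Among those without, it was at 2.82 to 6.16 and 0.574 to 0.752 FPKM, a log2 difference of 1.65. In PTZ+Q808 against control the log2 differences were 0.54 with and 1.66 without Y-linked transcripts. For Ifit2 they were 0.12 and 0.75. The difference between the classes was not tested, and the direction was the same in both.

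Isg15 and Usp18 belong to the ISG15 system. Isg15 encodes a ubiquitin-like protein that is attached to other proteins in the interferon response, and Usp18 encodes the protease that removes it and that also dampens signalling at the receptor. Isg15 stood at 2.91, 2.13, 2.38 and 2.46 FPKM in control, at 3.96, 2.05, 2.12, 2.66 and 2.66 in PTZ, and at 2.00, 1.92, 3.48, 1.28 and 2.53 in PTZ+Q808. PTZ replicate 1 and PTZ+Q808 replicate 3 were the highest libraries, and the other exposed libraries lay within or below the control range. Means were 2.47 ± 0.322 FPKM (SD, n = 4), 2.69 ± 0.768 (n = 5) and 2.24 ± 0.825 (n = 5), with a log2 difference of 0.07 ± 0.176 (SE) between PTZ and control (95% interval -0.31 to 0.45).

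Usp18 stood at 2.88, 2.47, 3.11 and 2.14 FPKM in control, and at 4.30, 1.66, 2.12, 1.58 and 2.00 in PTZ. PTZ replicate 1 was above every control library, while the other 4 PTZ libraries were below all of them. In PTZ+Q808 Usp18 stood at 1.99, 1.23, 3.07, 1.18 and 1.79 FPKM, where replicate 3 lay within the control range and the other 4 below it. The log2 difference was -0.18 ± 0.213 (SE, 95% interval -0.63 to 0.28) between PTZ and control and -0.39 ± 0.213 (-0.84 to 0.07) between PTZ+Q808 and control. Usp18 and Isg15 rested on 30 to 122 and 29 to 91 fragments per library.

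Irf7, the factor that amplifies interferon production, varied more between libraries of a group than between groups. It stood at 4.91, 4.83, 6.76 and 3.65 FPKM in control, at 9.78, 3.69, 3.17, 6.23 and 4.35 in PTZ, and at 3.16, 1.80, 8.77, 2.12 and 4.76 in PTZ+Q808. The highest library was 5.42 times the lowest, a spread second among the 8 genes to that of Ifit3 (10.7 times). PTZ replicate 1 and PTZ+Q808 replicate 3 were again the highest, and PTZ+Q808 replicates 2 and 4 the lowest. Means were 5.04 ± 1.28 FPKM (SD, n = 4), 5.44 ± 2.69 (n = 5) and 4.12 ± 2.84 (n = 5). The log2 difference between PTZ and control was 0.03 ± 0.342 (SE, 95% interval -0.70 to 0.76).

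Irf1 had its 3 highest libraries in the control group. It stood at 4.88, 4.45, 3.79 and 4.65 FPKM in control, at 4.32, 3.57, 2.97, 3.53 and 2.71 in PTZ, and at 3.76, 3.07, 4.13, 2.56 and 2.83 in PTZ+Q808. Control replicate 3 lay below PTZ replicate 1 and PTZ+Q808 replicate 3, so the ranges overlapped. Means were 4.44 ± 0.469 FPKM (SD, n = 4), 3.42 ± 0.623 (n = 5) and 3.27 ± 0.657 (n = 5). The log2 difference from control was -0.31 ± 0.123 (SE, 95% interval -0.57 to -0.04) for PTZ and -0.36 ± 0.123 (-0.62 to -0.09) for PTZ+Q808. Irf1 thus differed from control in the direction opposite to Ifit2 and Ifit3.

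Stat2 and Irf9 encode subunits of ISGF3 and were the most abundant of the 8 genes in control, at 10.3 ± 1.20 and 6.98 ± 1.11 FPKM (SD, n = 4). Stat2 was also the steadiest, its highest library being 1.60 times its lowest. It ran from 9.06 to 11.95 FPKM in control, from 8.88 to 10.9 in PTZ and from 7.48 to 10.2 in PTZ+Q808. The log2 difference between PTZ and control was -0.07 ± 0.092 (SE, 95% interval -0.27 to 0.12). Irf9 stood at 6.24, 5.81, 7.87 and 7.98 FPKM in control, at 7.47, 6.10, 6.43, 6.54 and 8.78 in PTZ, and at 4.24, 4.68, 5.98, 6.42 and 6.25 in PTZ+Q808. All 5 PTZ+Q808 libraries lay at or below 6.42 FPKM, a level that 4 of 5 PTZ and 2 of 4 control libraries exceeded.

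In order of control level the 8 genes ran Stat2, Irf9, Irf7 (5.04 ± 1.28 FPKM), Irf1 (4.44 ± 0.469), Usp18 (2.65 ± 0.432), Isg15 (2.47 ± 0.322), Ifit2 and Ifit3 (SD, n = 4). The ranges of neighbouring genes overlapped for Irf9 and Irf7, Irf7 and Irf1, and Usp18 and Isg15, so their order is not resolved by 4 libraries. Stat2 stood at the 51.7th percentile of the 12744 genes by control level and Ifit3 at the 0.989th. Ifit3 was below 1 FPKM in control replicates 1, 3 and 4, so it passed the filter through the exposed libraries. The 12744 genes are those that the filter left, so its place near their bottom depends on the filter.

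Setting PTZ+Q808 beside PTZ addresses whether levels after PTZ differed when the compound was given too. No member of the 8 was called and for no member did the 2 groups separate. Over all genes, 0 of 12744 (0%) were called in limma, with 783 genes at an unadjusted p under 0.05, and 99 genes (0.777%) had groups that did not overlap. All 8 genes had negative log2 differences, with a median of -0.20 against -0.004 over all genes tested. This sign did not hold in both classes of Y-linked transcripts. Among libraries with them (3 against 3) all 8 differences were negative, with -0.96 for Irf7, -0.52 for Usp18 and -0.49 for Isg15. Among libraries without them (2 against 2) 6 of 8 were positive, with 0.45 for Irf7, 0.25 for Usp18 and 0.24 for Isg15, and Irf9 (-0.07) and Stat2 (-0.06) stayed negative. The difference between the classes was not tested. Without PTZ replicate 1, the difference of Usp18 was -0.03 in place of -0.21, and that of Irf7 was -0.19 in place of -0.40. Irf9 was lowest against PTZ relative to its error, with means of 5.52 ± 0.988 and 7.06 ± 1.09 FPKM (SD, n = 5 each) and a log2 difference of -0.31 ± 0.122 (SE, 95% interval -0.57 to -0.05). The interval was -0.79 to 0.28 for Ifit3, -0.30 to 0.26 for Ifit2, -1.09 to 0.29 for Irf7, -0.55 to 0.16 for Isg15 and -0.64 to 0.22 for Usp18. These intervals take in differences in both directions, so neither direction was resolved for these genes. The values were spread unequally: PTZ+Q808 replicate 3 was among the 3 highest of all 14 libraries for Ifit2, Ifit3, Irf7, Isg15 and Usp18, while replicate 4 was among the 3 lowest for Ifit2, Irf1, Irf7, Stat2, Isg15 and Usp18.

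PTZ+Q808 against control shares its control libraries with the first comparison. Here 0 of the 8 genes were called, where 366 of 12744 genes (2.87%) were, and 0 of the 8 had groups that did not overlap, against 1136 genes (8.91%). Ifit3 and Ifit2 had the positive differences, 1.01 ± 0.265 (SE, 95% interval 0.44 to 1.58) and 0.39 ± 0.139 (0.09 to 0.68) on the log2 scale. The other 6 had negative ones, from -0.13 for Isg15 to -0.39 for Usp18. The median of the 8 genes was -0.23, against -0.02 over all genes tested.

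The libraries arranged the 8 genes in sets that differed from library to library. Correlations below are over the 14 libraries on the log2(FPKM + 1) scale, describe these libraries and carry no test, since libraries share their group and their tissue composition. Ifit2 and Ifit3 followed each other (Pearson r = 0.90, Spearman rho = 0.95, r = 0.80 within the 10 exposed libraries). Irf7, Isg15 and Usp18 formed a second set, with r = 0.87 between Irf7 and Isg15, 0.82 between Irf7 and Usp18 and 0.79 between Isg15 and Usp18. Without the 2 libraries farthest from the median of the first gene these were 0.84, 0.68 and 0.56. Between the sets, Ifit3 and Usp18 had r = -0.06 over 14 libraries and 0.40 within the 10 exposed libraries, and Ifit3 and Irf7 had 0.33 and 0.74. Within the 10 exposed libraries Ifit2 had r = 0.80 with Isg15 and 0.74 with Irf7, about as high as with Ifit3 (0.80). The 2 sets were therefore less distinct once the controls were left out.

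**Figure D2:**
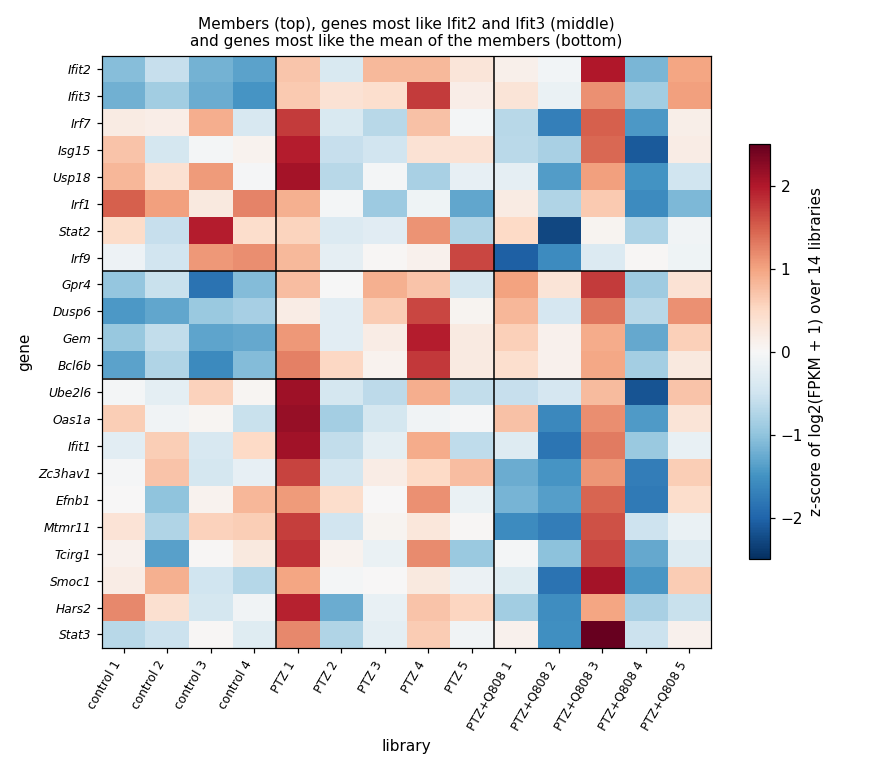
z-scores of log2(FPKM + 1) over the 14 libraries (columns, by group) for the 8 interferon response genes (top block), the genes most like Ifit2 and Ifit3 (middle) and the 10 genes most like the mean of the 8 (bottom); red is above and blue below the gene's mean. Ifit2, Ifit3 and the middle block are blue in all 4 control libraries, and the bottom block is reddest in PTZ replicate 1 and PTZ+Q808 replicate 3.

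Genes most like each member were ranked by Pearson r over the 14 libraries among 12736 other tested genes. For Ifit3 they were Gem (r = 0.95), a small GTPase that limits calcium channel activity, Bcl6b (0.94), a transcriptional repressor, and Dusp6 (0.93), a phosphatase that switches off ERK. For Ifit2 they were Gpr4 (0.90), a proton-sensing receptor of endothelium, Dusp6 (0.87) and Gem (0.87). Gem stood at 1.60 to 2.17 FPKM in control, at 2.50 to 5.58 in PTZ and at 1.63 to 3.91 in PTZ+Q808. Like Ifit3, it was highest in PTZ replicate 4 and within the control range in PTZ+Q808 replicate 4. Its log2 difference between PTZ and control was 0.69 ± 0.192 (SE), which did not pass in limma (adjusted p = 0.407). Dusp6 was above control by 0.89 ± 0.247 in PTZ (adjusted p = 0.400) and by 0.88 ± 0.247 in PTZ+Q808 (adjusted p = 0.0674).

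For Isg15, Irf7 and Usp18 the 3 most similar genes each came from 6 genes, Ube2l6, Oas1a, Ifit1, Zc3hav1, Ddx58 and Rnf213. Ube2l6, the conjugating enzyme that transfers Isg15 to its targets, had r = 0.88 with Isg15 and 0.84 with Irf7. Oas1a, which makes the 2'-5' oligoadenylates that activate RNase L, had r = 0.85 with Usp18. Ifit1, the RNA-binding relative of Ifit2 and Ifit3, had r = 0.84 with Irf7, and the cytosolic RNA sensor Ddx58 had 0.85 with Usp18. Zc3hav1 had r = 0.85 with Isg15, and the large ubiquitin ligase gene Rnf213 had 0.84 with Usp18. Without the 2 libraries farthest from the median of the member, these values ran from 0.64 (Ube2l6 with Isg15) to 0.87 (Ube2l6 with Irf7). Ifit1 stood at 2.75 FPKM in PTZ replicate 1, at 2.09 in PTZ+Q808 replicate 3, and at 0.442 to 1.82 in the other 12 libraries. Oas1a stood at 4.17 and 2.85 FPKM in those 2 libraries and at 0.705 to 2.38 elsewhere. The log2 difference between PTZ and control was 0.07 ± 0.222 (SE) for Ifit1 and 0.06 ± 0.274 for Oas1a (adjusted p = 0.958 and 0.970 in limma). Ifit1 ran from 1.05 to 1.62 FPKM in control and from 0.931 to 2.75 in PTZ, so its groups overlapped, unlike those of Ifit2 and Ifit3. The difference between Ifit1 and its relatives was not tested.

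Ube2l6 (r = 0.87), Oas1a (0.87), Ifit1 (0.86) and Zc3hav1 (0.85), a zinc finger protein that binds viral RNA, also headed the genes most like the mean of all 8. Efnb1, Mtmr11, Tcirg1, Smoc1, Hars2 and Stat3 followed at 0.85 to 0.80. For Irf1 the closest were Naprt (0.82), Aplnr (0.81) and Amt (0.80). For Irf9 they were Drosha (0.87), the nuclease that releases microRNA hairpins, and the less characterised RGD1308430 (0.86) and LOC108348225 (0.84). For Stat2 they were Pycrl (0.86), Snd1 (0.86) and Me3 (0.85). Without the 2 libraries farthest from the median of Stat2 these were 0.56, 0.64 and 0.79, so the first 2 rested in part on extreme libraries.

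Over all 14 libraries the 2 sets also followed different gene lists. The 10 listed immediate early genes, which neuronal activity switches on within a short time, had a mean log2(FPKM + 1) of 3.38 to 4.28 in control libraries, 4.64 to 6.66 in PTZ and 4.30 to 6.63 in PTZ+Q808. In limma 0 of the 10 were called in PTZ against control, although all 10 had positive log2 differences (median 1.55), and 4 rose in PTZ+Q808 against control (Dusp1, Npas4, Fos and Atf3, adjusted p = 0.0226 to 0.0460). Ifit3 had r = 0.90 with this mean (rho = 0.89, 0.82 within the 10 exposed libraries), and Ifit2 had r = 0.82. Usp18 had r = -0.13, Irf7 0.19, Isg15 0.18 and Irf1 -0.34. Within the 10 exposed libraries these were 0.23, 0.43, 0.37 and 0.37, and Stat2 had 0.68. The immediate early mean also ran with the class of Y-linked transcripts there. It was 5.90 to 6.66 in the 4 exposed libraries without them and 4.30 to 6.42 in the 6 with them. Ifit3 and Ifit2 had r = -0.73 and -0.74 with Y-linked transcripts in these 10 libraries. The part of each in the levels of Ifit3 and Ifit2 was not tested. With the mean z-score of 38 other antiviral effector genes the order turned. Usp18 had r = 0.87 (rho = 0.84), Irf7 0.79, Isg15 0.74 and Irf1 0.73, while Ifit2 had 0.24 and Ifit3 0.07. Within the 10 exposed libraries Ifit2 had 0.54 and Ifit3 0.39, so the contrast between the sets was smaller there. That score was 1.17 in PTZ replicate 1, 0.88 in PTZ+Q808 replicate 3, 0.51 in control replicate 2, and lay between -0.58 and 0.19 in the other 11 libraries. Without the 2 libraries farthest from the median, r with the antiviral score was 0.74 for Usp18, 0.56 for Irf7 and 0.37 for Isg15, so those of Irf7 and Isg15 rested in part on the extreme libraries.

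**Figure D3:**
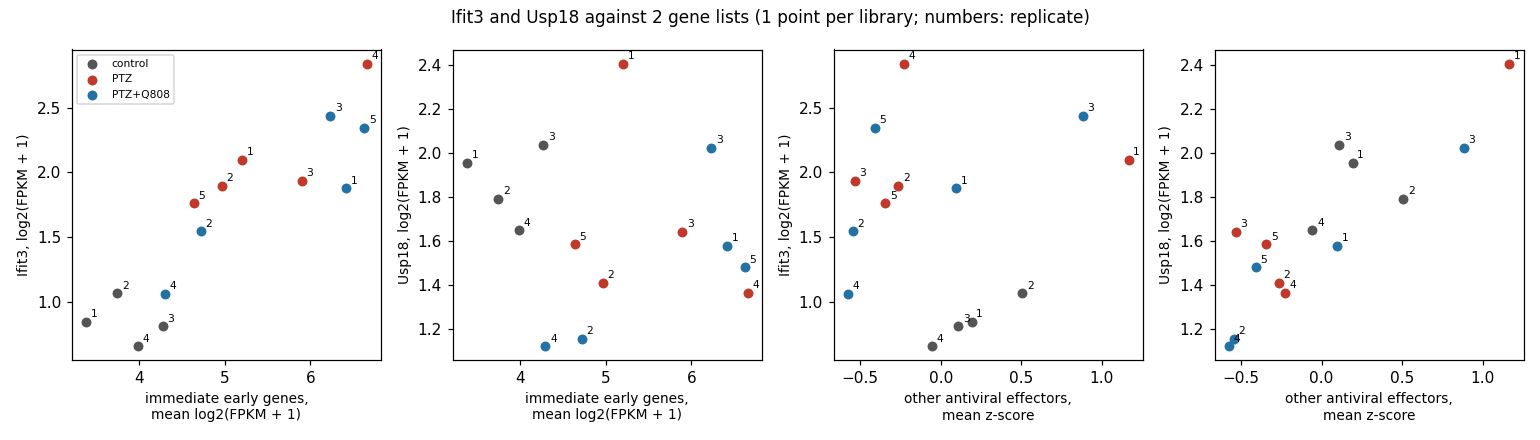
log2(FPKM + 1) of Ifit3 and Usp18 (vertical axes) against the mean log2(FPKM + 1) of 10 immediate early genes and the mean z-score of 38 other antiviral effector genes (horizontal axes); each point is a library with its replicate number, coloured by group. Ifit3 climbs with the immediate early mean (r = 0.90) and Usp18 with the antiviral score (r = 0.87).

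The libraries with the highest antiviral score also stood high in markers of other cell types. Meningeal fibroblast markers summed to 339 FPKM in PTZ replicate 1. In PTZ+Q808 replicate 3 they summed to 281 FPKM. Control sums were 76.6 to 145 FPKM, and the rest of the exposed libraries lay between 94.4 and 225. Endothelial markers summed to 124 and 113 FPKM in those 2 libraries, against 81.5 to 104 in control. PTZ+Q808 replicate 1 and PTZ replicate 2 were close, at 112 and 107 FPKM, with antiviral scores of 0.10 and -0.26. All 9 endothelial markers found were at 1 FPKM or more in all 14 libraries, and 8 to 10 of the 10 meningeal markers were. Blood leukocyte markers summed to 18.7 and 16.8 FPKM in PTZ replicate 1 and PTZ+Q808 replicate 3 and to 6.49 to 16.4 elsewhere. Choroid plexus markers summed to 5502 and 7026 FPKM in the same 2 libraries. They summed to 7334 FPKM in control replicate 2 (antiviral score 0.51) and to 6411 FPKM in PTZ+Q808 replicate 4 (score -0.58). The part of these cells in the levels of Irf7, Isg15 and Usp18 was not tested. PTZ+Q808 replicates 1 and 2 had meningeal sums of 225 and 224 FPKM, with Isg15 at 2.00 and 1.92 FPKM.

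Ifit3 and Ifit2 were set against the mean log2(FPKM + 1) of the same marker lists. Ifit3 had r = 0.23 with endothelial, 0.40 with meningeal and 0.44 with microglial markers over the 14 libraries, and Ifit2 had 0.37, 0.45 and 0.60. With blood leukocyte markers Ifit3 had r = 0.44 (rho = 0.61) and Ifit2 0.49 (rho = 0.60). With pituitary markers Ifit3 had 0.43 and Ifit2 0.67, and within the 10 exposed libraries 0.35 and 0.69. Within the 10 exposed libraries, r with microglial markers was 0.73 for Ifit3 and 0.84 for Ifit2. PTZ replicate 4, the highest library for Ifit3, had an endothelial sum of 80.0 FPKM and a meningeal sum of 108 FPKM, both within or below the control range. Its microglial sum of 236 FPKM was the highest of the PTZ group. Among exposed libraries only PTZ+Q808 replicates 5 and 3 were higher, at 262 and 257 FPKM. These 3 libraries were also the 3 highest for Ifit3 and for Ifit2. Control replicate 2 had a microglial sum of 257 FPKM with Ifit3 at 1.09 FPKM. The part of microglia in these levels was not tested. Irf1 had r = 0.53 with endothelial markers over 14 libraries and 0.85 within the 10 exposed ones.

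Beyond these 8 genes, 158 further genes of the interferon pathway were listed by role, of which 150 were found and 101 passed the filter. In limma, 0 of the 101 were called in any of the 3 comparisons. At an unadjusted p under 0.05 there were 6 genes (0 higher, 6 lower) in PTZ against control, 1 (lower) in PTZ+Q808 against PTZ and 14 (5 higher, 9 lower) in PTZ+Q808 against control. These are 5.94%, 0.990% and 13.9% of the 101 genes, against 8.11%, 6.14% and 20.7% of all genes tested. Their median log2 differences were -0.04, -0.02 and -0.05. The interferon pathway as listed therefore showed no larger share of low p-values than the transcriptome in any comparison.

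Among the ligands, 10 of 12 were listed at 0 FPKM in all 14 libraries, including Ifnb1 and Ifng. Ifna5 reached 0.0517 FPKM and Ifne 0.0796 FPKM at most. Of 9 tested receptors and kinases, the receptor chain gene Ifnar2 had the smallest p in PTZ against control, with 4.87 ± 0.375 FPKM (SD, n = 5) against 5.60 ± 0.376 (n = 4) and a log2 difference of -0.17 ± 0.069 (SE, adjusted p = 0.581). The list of other IRF genes also held genes of Irf2-binding proteins. Of these, Irf2bp1, a corepressor of Irf2, stood at 15.8 ± 0.971 FPKM in PTZ, 16.0 ± 1.25 in PTZ+Q808 and 18.6 ± 0.594 in control. Its adjusted p was 0.407 for PTZ and 0.0781 for PTZ+Q808 against control. Irf8, a factor of microglia and other myeloid cells, stood at 2.48 ± 0.608 FPKM in PTZ and 3.48 ± 0.901 in control (log2 difference -0.36 ± 0.148, adjusted p = 0.581).

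Of 38 tested antiviral effectors, 26 had negative log2 differences in PTZ against control and 29 in PTZ+Q808 against control, with medians of -0.06 and -0.11. Over all genes tested the medians were -0.01 and -0.02. In limma 0 of the 38 were called in either comparison. The effector with the smallest p in PTZ was Cmpk2, a mitochondrial nucleotide kinase, at 6.71 ± 0.242 FPKM (SD, n = 5) against 7.55 ± 0.527 (n = 4, adjusted p = 0.594). In PTZ+Q808 against control it was Eif2ak2, the kinase PKR that shuts down translation on double-stranded RNA, at 3.90 ± 0.596 against 3.13 ± 0.302 FPKM (adjusted p = 0.153). The adaptor Mavs, which relays RNA sensing at mitochondria, stood at 3.81 ± 0.495 FPKM in PTZ+Q808 and 4.66 ± 0.420 in control (adjusted p = 0.184). In the ISG15 system, 0 of 5 conjugation genes were called, and Ube2l6 differed between PTZ and control by 0.05 ± 0.164 on the log2 scale (adjusted p = 0.964).

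Of 21 tested genes of the interferon gamma response and antigen presentation, the adhesion molecule Vcam1 had the smallest p in PTZ+Q808 against control. It stood at 12.2 ± 0.843 FPKM (SD, n = 5) against 10.3 ± 0.868 (n = 4), a log2 difference of 0.23 ± 0.066 (SE, adjusted p = 0.0768). Psme2, an interferon-induced proteasome activator subunit, stood at 19.0 ± 0.970 FPKM in PTZ and 21.6 ± 1.10 in control (adjusted p = 0.581). Of 12 negative regulators, Pias4, which restrains Stat proteins, stood at 8.94 ± 1.23 FPKM in PTZ+Q808 and 11.2 ± 0.952 in control (log2 difference -0.30 ± 0.089, adjusted p = 0.0785). Socs1, an inhibitor of Jak kinases, stood at 0.733 ± 0.274 FPKM in PTZ and 1.05 ± 0.215 in control (adjusted p = 0.664).

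**Figure D4:**
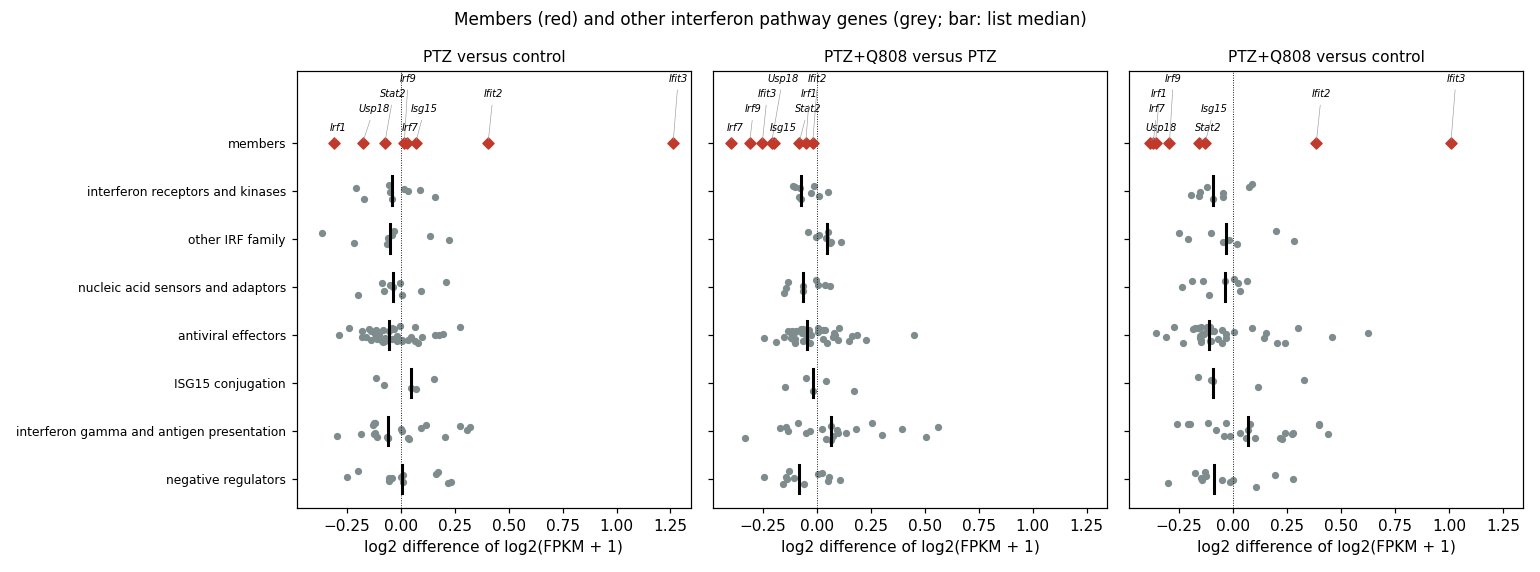
Log2 differences of log2(FPKM + 1) (horizontal axes) for the 8 interferon response genes (red diamonds, top row) and the other tested interferon pathway genes (grey points) by list, in the 3 comparisons; the bar is the median of a list, and vertical scatter within a row only separates points. Ifit3 and Ifit2 lie to the right of every other pathway gene in PTZ against control, and the list medians lie near 0.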

How the data were processed

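The authors deposited 1 table of FPKM per sample, for 14 rat hippocampus libraries. Per the labels' protocols, about 100 mg of tissue went into TRIzol, mRNA was taken by capture beads, and sequencing used a BGI T7. The submitters' processing notes list, with no role or version, Bowtie2, Cufflinks, DESeq, HISAT2, HTSeq, SAMtools, StringTie and Trimmomatic. The genome build and the strand setting of the counting are not given in the sources used here. RefSeq promoters are of GRCr8 and were matched by Entrez gene number.

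From the deposited FPKM, log2(FPKM + 1) was fitted with limma 3.58.1 (R 4.3.3; lmFit, eBayes with a mean-dependent prior, group as the term, 14 samples, 11 residual degrees of freedom) for genes at 1 FPKM or more in at least 4 samples. Tests were two-sided, with Benjamini-Hochberg adjustment over the 12744 genes of a comparison. The script was tested on simulated data. Numbers of fragments were read from the steps between FPKM values, and were not tested as counts. Intervals are 95%.

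The 8 genes and all gene lists were chosen with earlier results of these data known. Pathway genes named are, of each list, the 3 with the smallest p in a comparison or some of these, and genes named for likeness are the 10 of highest r with the mean of the 8 genes and the 3 of highest r with each. Samples with the same replicate number were not paired in the main fit. A fit with a replicate block is described with the alternatives. These alternatives were another pseudocount, 2 other filters, 2 other scalings, 2 groups per fit, a replicate block, weights per library, a term for Y-linked transcripts, and libraries left out.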

Additional observations from a re-analysis of the deposited data

Results flagged for a closer look

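In 2 of 24 checks (8 genes in 3 groups), 1 library stood apart from the rest of its group by more than Dixon's criterion allows; chance marks about 1 in 20 groups. Ifit3 stood at 6.16 FPKM in PTZ replicate 4, against 2.39 to 3.28 FPKM in the other 4 PTZ libraries. Without that library the log2 difference between PTZ and control was 1.08 in place of 1.26. Usp18 stood at 4.30 FPKM in PTZ replicate 1, against 1.58 to 2.12 FPKM in the other 4 PTZ libraries. Without that library the log2 difference between PTZ and control was -0.36 in place of -0.18.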

How the results depend on the processing

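Ifit3 stayed above control in all 23 alternatives it could be fitted in, with log2 differences of 1.08 (without PTZ replicate 4) to 1.93 (pseudocount of 0.1) for PTZ and 0.86 (without PTZ+Q808 replicate 3) to 1.57 (pseudocount of 0.1) for PTZ+Q808. Ifit2 ran from 0.38 to 0.58 and from 0.28 to 0.54, and Irf1 from -0.38 to -0.25 and from -0.45 to -0.30. Signs changed for Irf7 (3 alternatives), Irf9 (7) and Isg15 (1) in PTZ against control, and for Ifit2 (5) and Irf1 (2) in PTZ+Q808 against PTZ. A minimum of 5 FPKM left Irf7, Irf9 and Stat2 alone of the 8 genes. In PTZ+Q808 against control, Ifit3 was called in 5 alternatives (pseudocount of 0.1, weights, Y-linked term, without PTZ replicate 4, without PTZ+Q808 replicate 4) and Ifit2 in 1 (without PTZ+Q808 replicate 4). These were 6 of 195 fits of the 8 genes, and 0 of 195 were called in each other comparison. Of all 12744 genes, 1100 were called there with weights, 564 with the Y-linked term and 673 without PTZ+Q808 replicate 4. The 8 genes were picked on these data, so their calls are background and no test. Over all genes, calls in PTZ against control (4) became 1 without a filter, 0 with 2 groups in the fit, 7 with weights, 8 with the Y-linked term and 1 to 5 with a library left out (1 when PTZ replicate 3 or 4 or control replicate 1, 3 or 4 was absent, and 2 without PTZ replicate 5 or PTZ+Q808 replicate 3). Calls in PTZ+Q808 against PTZ (0) became 2 without a filter (Elane and Mpo). Calls in PTZ+Q808 against control (366) became 190 without a filter, 199 with 2 groups, 1100 with weights, 564 with the Y-linked term, 57 without control replicate 2 and PTZ+Q808 replicate 3 together, and 17 (without control replicate 1) to 673 (without PTZ+Q808 replicate 4) with a library left out, with 32 to 72 without control replicate 3 or 4 or PTZ+Q808 replicate 1, 3 or 5. The other pathway genes called there (0) became 3 with weights (Irf2bp1, Pias4 and Vcam1) and 0 to 2 with a library left out (2 without PTZ+Q808 replicate 2, 1 without PTZ+Q808 replicate 4). Apart from fewer genes or samples in a fit, the cause was not tested.

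With the replicate number as a replicate block, 0 genes were called in PTZ against control and 4 in PTZ+Q808 against control. Same-numbered libraries of different groups had correlations of deviations of -0.28 to 0.14 over 13 pairs, of which 2 were over 0.1, against -0.45 to 0.39 for libraries of other numbers. These correlations cannot show whether same-numbered samples shared a batch or an order of collection. Replicates 1 and 2 carried Y-linked transcripts in all 3 groups, and replicate 3 carried them in no group. Erythrocyte markers were also highest in replicates 1 and 2 of each group. What same-numbered samples share beyond the number was not tested.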
